A study of Mus with 6 samples.

Results

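Brain gene expression in mice given compound K together with SCOP (CK2 group) was compared with that in mice given SCOP alone (SCOP group), array by array. CK2 is here the name of a treatment group, not of a kinase. The series holds 6 one-colour Affymetrix arrays of brain RNA from ICR mice, an outbred stock, namely 2 Control, 2 SCOP and 2 CK2 arrays, and the comparison rests on the 4 arrays of the last groups. Mice of the CK2 group were given 40 mg/kg CK by mouth tube and 2 mg/kg SCOP by injection into the abdomen, those of the SCOP group the same injection without CK, and Control mice saline. Treatment lasted 14 days with SCOP from day 7 onward, and brains were removed after behavioural tests that included electric shocks. The source label and the methods spell the agent scopoletin hydrobromide, whereas the memory model is known from scopolamine, a blocker of muscarinic acetylcholine receptors. Which of the compounds was injected cannot be settled from the sources used here, so it is called SCOP. The age of the mice, the brain region taken and whether an array holds the RNA of a single mouse or of a pool are not given in these sources, so the p-values below measure only the spread between these samples.

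The values are log2 levels per probe set. All 19505 genes with 1 symbol were compared. A gene was called bright when its mean over all 6 arrays lay above 5.55, the highest of the arrays' 95th percentiles of the negative control probe sets, and 7660 genes (39.3%) were bright. SCOP replicate 2 alone set this limit, since the percentiles of the other arrays were 4.98 to 5.16. For each gene the gap between the groups was taken as the lowest array of the higher group minus the highest array of the lower group, so that a gap cannot be made by 1 SCOP array alone. With 2 arrays against 2, an exact permutation test cannot go below a p of 0.333, so the gap is a description with no test. The neuronal and glial genes Snap25 (10.46 to 11.18), Syt1 (10.48 to 11.45), Slc1a2 (10.18 to 10.36) and Mbp (11.22 to 11.50) were bright on every array in this brain tissue. Among genes of other tissues, Alb of liver stayed between 2.07 and 3.05, but Ckm of muscle was bright at 6.23 to 6.84.

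The SCOP arrays were unlike each other. Replicate 2 correlated with the other 5 arrays of the series at 0.965 to 0.969 over all genes, while those 5 correlated among themselves at 0.990 to 0.993, and its GC-rich background controls with at least 16 G or C bases read 6.11 against 4.99 to 5.19 elsewhere. For this reason the 2 SCOP arrays are given separately for most genes described.

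Acetylcholine acting on muscarinic receptors keeps cortical and hippocampal neurons excitable, and blocking these receptors impairs memory in rodents. Neurons that fire strongly switch on immediate early genes, such as Fos, Arc and Nr4a1, within minutes, and their RNA is a common readout of recent activity. Compound K is a metabolite that gut bacteria make from ginseng saponins.

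Over the bright genes the CK2 arrays lay close to SCOP replicate 1 and far from SCOP replicate 2. The SD of the difference across the 7660 genes was 0.194 between CK2 replicate 1 and SCOP replicate 1 and 0.197 between CK2 replicate 2 and SCOP replicate 1. These are near the 0.183 between the 2 CK2 arrays and below the 0.223 between the 2 Control arrays. Against SCOP replicate 2 the SDs were 0.547 and 0.579, and the 2 SCOP arrays differed from each other with an SD of 0.600. The median difference of the CK2 mean was -0.01 from SCOP replicate 1 and 0.24 from SCOP replicate 2.

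By limma 0 genes passed an adjusted p of 0.05 in this comparison, and the smallest adjusted p over all genes was 0.89. At an unadjusted p under 0.05 the same limma fit gave 223 genes with higher values in CK2 (1.14%) and 279 with lower values (1.43%), and among the bright genes 67 (0.875%) and 29 (0.379%). Both CK2 arrays lay above both SCOP arrays in 1496 bright genes (19.5%) and below both in 688 (8.98%). A gap of at least 0.25 was seen in 78 bright genes with higher values (1.02%) and 30 with lower values (0.392%). At a gap of at least 0.5 there were 10 with higher values (0.131%), namely Arc, Nt5dc3, Fam177a2, Avp, Trf, Fos, Paqr8, Rassf8, Cldn11 and Nr4a1, and 2 with lower values (0.0261%), Fabp7 and Gm14403. The count of 10 was 5 after quantile or cyclic loess normalization of the arrays. The mean that defines brightness includes the CK2 arrays, so high CK2 values can let a gene in and low ones can leave it out. The split of 10 and 2 thus depends in part on this filter, and with no brightness filter the counts were 30 higher and 40 lower. Just inside the gap threshold of 0.5 was Nr4a1 with a gap of 0.50. Just outside were H2bc18 at 0.498 on the lower side and Rerg at 0.47 on the higher side.

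**Figure D1:**
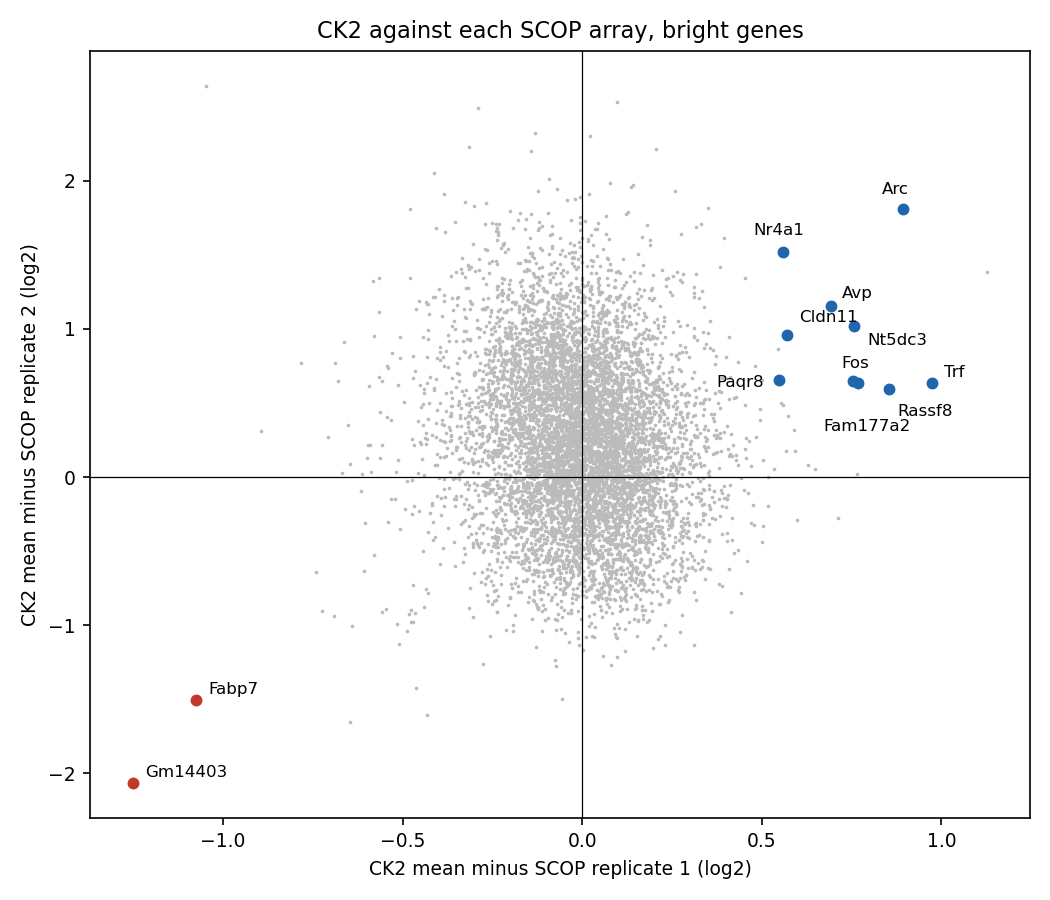
Each point is 1 of the 7660 bright genes, with the CK2 mean minus SCOP replicate 1 on the horizontal axis and minus SCOP replicate 2 on the vertical axis, both on the log2 scale. The cloud is wide in the vertical and narrow in the horizontal direction. The 10 blue and 2 red genes were chosen by gaps of at least 0.5, so they lie away from 0 on both axes by that choice.

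The genes with higher values in CK2 included several that neurons switch on with activity. Arc, which encodes a capsid-like protein that governs AMPA receptor traffic at synapses, read 6.19 and 5.27 in SCOP, 6.86 and 7.30 in CK2 and 6.77 and 7.10 in Control. Both CK2 arrays were above both SCOP arrays, and the CK2 and Control arrays overlapped. The SCOP mean was 5.73 ± 0.65 (SD, n = 2) and the CK2 mean 7.08 ± 0.31 (SD, n = 2), a 2.55-fold difference (log2 1.35, standard error 0.33, limma adjusted p of 0.89 and unadjusted p of 0.00317). Against SCOP replicate 1 alone the difference was 0.89, and against SCOP replicate 2 it was 1.81.

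Fos, a subunit of the AP-1 transcription factor, read 4.999 and 5.13 in SCOP, 5.71 and 5.83 in CK2 and 5.91 and 5.96 in Control. The SCOP arrays were close together, so that this difference did not depend on SCOP replicate 2, and the CK2 arrays lay between the other groups without reaching Control. The log2 difference was 0.70 (standard error 0.19, limma adjusted p of 0.89, unadjusted p of 0.00656) and 0.77 against SCOP replicate 1. Both Fos levels in SCOP lay under the brightness limit.

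Nr4a1, an orphan nuclear receptor of the immediate early class, read 6.64 and 5.68 in SCOP, 7.14 and 7.25 in CK2 and 7.21 and 7.39 in Control. SCOP replicate 2 was the lowest array, and the log2 difference of 1.04 (standard error 0.31, limma adjusted p of 0.89) was 0.56 against SCOP replicate 1. Its relative Nr4a3 read 7.52 and 6.63 in SCOP against 8.04 and 7.91 in CK2, with a gap of 0.39. Spry4, an inhibitor of receptor tyrosine kinase signalling that growth factors induce, read 5.43 and 5.50 in SCOP, 5.94 and 6.04 in CK2 and 6.04 and 5.70 in Control. Here the SCOP arrays were close together, both under the brightness limit, and the CK2 arrays fell within the Control range.

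The zinc finger activators Egr1 and Egr2 differed in how far they leaned on 1 array. Egr2 read 5.81 and 5.87 in SCOP against 6.50 and 6.23 in CK2, and its log2 difference was 0.53 on all arrays and 0.55 against SCOP replicate 1. Egr1 read 9.09 and 7.62 in SCOP against 9.49 and 9.39 in CK2, and its log2 difference of 1.08 was 0.35 against SCOP replicate 1. Dusp1, a phosphatase that turns off MAP kinases, read 8.04 and 6.66 in SCOP and 8.23 and 8.51 in CK2, again with SCOP replicate 2 far below.

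Like all gene lists here, the 2 lists below were written with earlier results of these data known. They include Fos, Nr4a1 and Arc, chosen above by the same gap, so their counts are descriptive and test nothing. Of 24 measured immediate early transcription factors, 16 were bright. In 10 of these 16 both CK2 arrays lay above both SCOP arrays, against 19.5% of all bright genes, and in 0 of 16 below. At an unadjusted p under 0.05 in limma 7 of the 24 had higher and 0 lower values, against 1.14% and 1.43% of all genes. The median log2 difference of the 24 was 0.47 (0.02 over all genes) and lay between 0.25 and 0.49 under the scalings tried and with each SCOP or CK2 array left out, and the bright members had a median of 0.25 against SCOP replicate 1 and 0.53 against SCOP replicate 2. Of 24 measured activity-induced effectors, 16 were bright, 7 of these had both CK2 arrays above both SCOP arrays, and 6 of the 24 had higher and 0 lower values at an unadjusted p under 0.05. Not every member differed. Rheb, a GTPase that activates mTORC1, and the stress-responsive factor Klf6 had SCOP and CK2 arrays that overlapped, and so did Bdnf, a neurotrophin, and Homer1, a postsynaptic scaffold. Excitatory neuron markers were set beside these lists and had a median of 0.004 over their 14 bright members against SCOP replicate 1 and 0.66 against SCOP replicate 2. In bulk tissue fewer cells of a type and less RNA per cell cannot be told apart, and the part of the shocks in the activity genes was not tested.

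**Figure D2:**
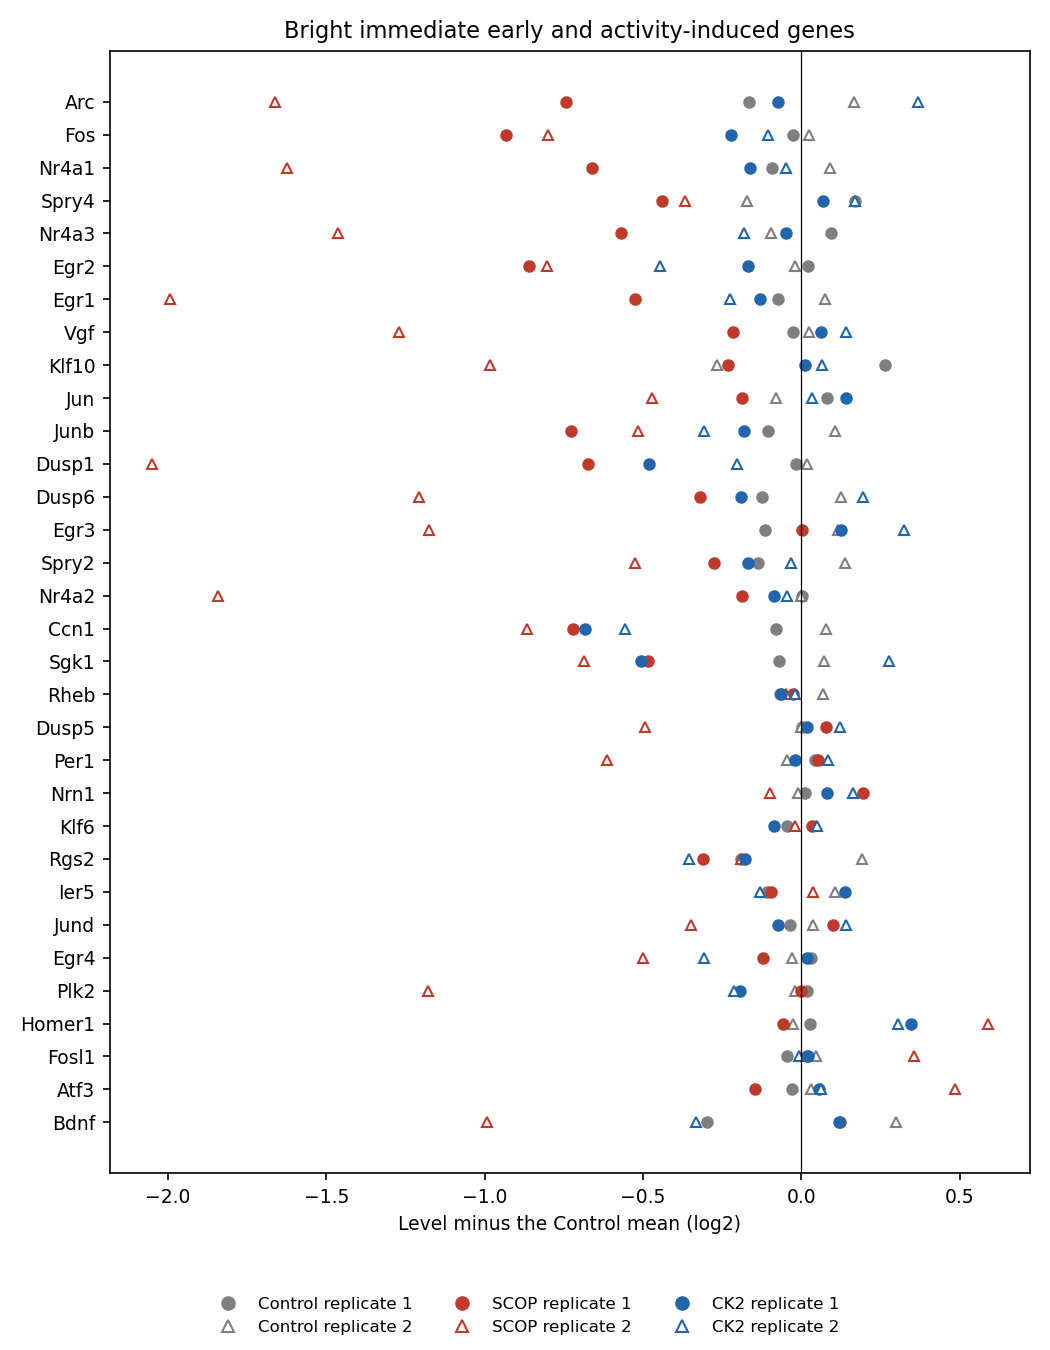
Level of each bright immediate early or activity-induced gene on each array, minus the Control mean, on the log2 scale, with genes ordered by the gap between CK2 and SCOP. For Arc, Fos, Nr4a1, Egr2 and Egr1 both SCOP arrays (red) lie left of both CK2 arrays (blue), while for many genes lower in the plot, such as Egr3, Nr4a2 and Plk2, only SCOP replicate 2 (open red triangle) stands off.

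Among genes of oligodendrocytes, the myelin-forming glia, Trf and Cldn11 differed from both SCOP arrays and most others did not. Trf, the iron carrier transferrin, which oligodendrocytes make in brain, read 8.62 and 8.96 in SCOP, 9.64 and 9.54 in CK2 and 9.66 and 9.55 in Control. The CK2 and Control arrays had nearly the same values, and SCOP replicate 1, not replicate 2, was the lowest. The log2 difference was 0.80 (1.74-fold, standard error 0.21, limma adjusted p of 0.89, unadjusted p of 0.00492) and 0.97 against SCOP replicate 1. Cldn11, the claudin that forms the tight junctions of myelin, read 8.08 and 7.69 in SCOP, 8.70 and 8.60 in CK2 and 8.74 and 8.66 in Control. Its log2 difference was 0.77 (standard error 0.21, limma adjusted p of 0.89) and 0.57 against SCOP replicate 1.

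None of the other myelin genes had a gap of this size. Mbp, myelin basic protein, read 11.27 and 11.50 in SCOP and 11.38 and 11.22 in CK2. Mobp read 8.73 and 9.39 in SCOP and 8.99 and 8.71 in CK2. Fa2h, which hydroxylates the fatty acids of myelin lipids, read 7.66 and 6.18 in SCOP and 7.83 and 7.61 in CK2, so its difference of 0.80 was 0.06 against SCOP replicate 1. Cnp, a myelin enzyme, read 8.90 and 8.32 in SCOP and 9.21 and 8.95 in CK2, a gap of 0.05. With Trf and Cldn11 it made 3 of the 13 bright members with both CK2 arrays above both SCOP arrays, where all bright genes gave 19.5%. Of the 14 measured members 2, Trf and Cldn11, had higher and 0 lower values at an unadjusted p under 0.05 in limma, against 1.14% and 1.43% of all genes. The median over the 14 was 0.13, and it was 0.001 after cyclic loess normalization.

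The other bright genes with a gap of at least 0.5 belong to no common list. Nt5dc3, a member of the 5'-nucleotidase domain family, read 6.98 and 6.72 in SCOP, 7.61 and 7.86 in CK2 and 7.99 and 7.79 in Control. The log2 difference was 0.89 (1.85-fold, standard error 0.21, limma adjusted p of 0.89, unadjusted p of 0.00309) and 0.76 against SCOP replicate 1. Both SCOP arrays were well below both Control arrays, and the CK2 arrays overlapped with Control.

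Avp, the hypothalamic hormone vasopressin, read 5.99 and 5.53 in SCOP, 6.59 and 6.77 in CK2 and 6.40 and 6.17 in Control, so that the CK2 arrays were above those of both other groups. The log2 difference was 0.93 (standard error 0.23, limma adjusted p of 0.89) and 0.69 against SCOP replicate 1. The Avp level of SCOP replicate 2 lay just under the brightness limit. Oxt, the related hormone oxytocin made in the same hypothalamic nuclei, read 6.77 and 6.92 in SCOP and 7.15 and 7.10 in CK2. The remaining bright hypothalamic neuropeptide genes, Cartpt and Pmch, had overlapping arrays. The dim neuropeptide gene Gal, galanin, read 3.19 and 3.18 in SCOP and 3.90 and 4.40 in CK2, all under the brightness limit. How much of the hypothalamus each sample held was not tested.

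Fam177a2 differed from both SCOP and Control. Its arrays read 6.95 and 7.06 in SCOP, 7.72 and 7.69 in CK2 and 7.02 and 7.05 in Control. The log2 difference from SCOP was 0.70 (standard error 0.19, limma adjusted p of 0.89) and that from Control 0.67, with the SCOP and Control arrays overlapping. A near-identical gene copy could share its probes, so the value may not belong to this copy alone. Paqr8, a membrane receptor for progestins, had the same form on a smaller scale, with 8.15 and 8.05 in SCOP, 8.69 and 8.71 in CK2 and 8.13 and 8.55 in Control. Rassf8, a Ras association domain protein, read 5.16 and 5.42 in SCOP, 6.07 and 5.95 in CK2 and 5.71 and 5.57 in Control. Rerg, a small GTPase of the Ras family, read 5.41 and 5.15 in SCOP and 5.91 and 5.88 in CK2. Both SCOP levels of Rassf8 and of Rerg lay under the brightness limit. Retsat, a retinol saturase, is named after its values were seen, since it had the widest difference from SCOP replicate 1 among bright genes that were higher in CK2 (1.13). Its arrays read 5.04 and 4.78 in SCOP, 6.94 and 5.38 in CK2 and 5.20 and 6.38 in Control, so that the 2 CK2 arrays, and the 2 Control arrays, were about as far apart as the SCOP and CK2 groups. Both SCOP levels of Retsat, CK2 replicate 2 and Control replicate 1 lay under the brightness limit.

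**Figure D3:**
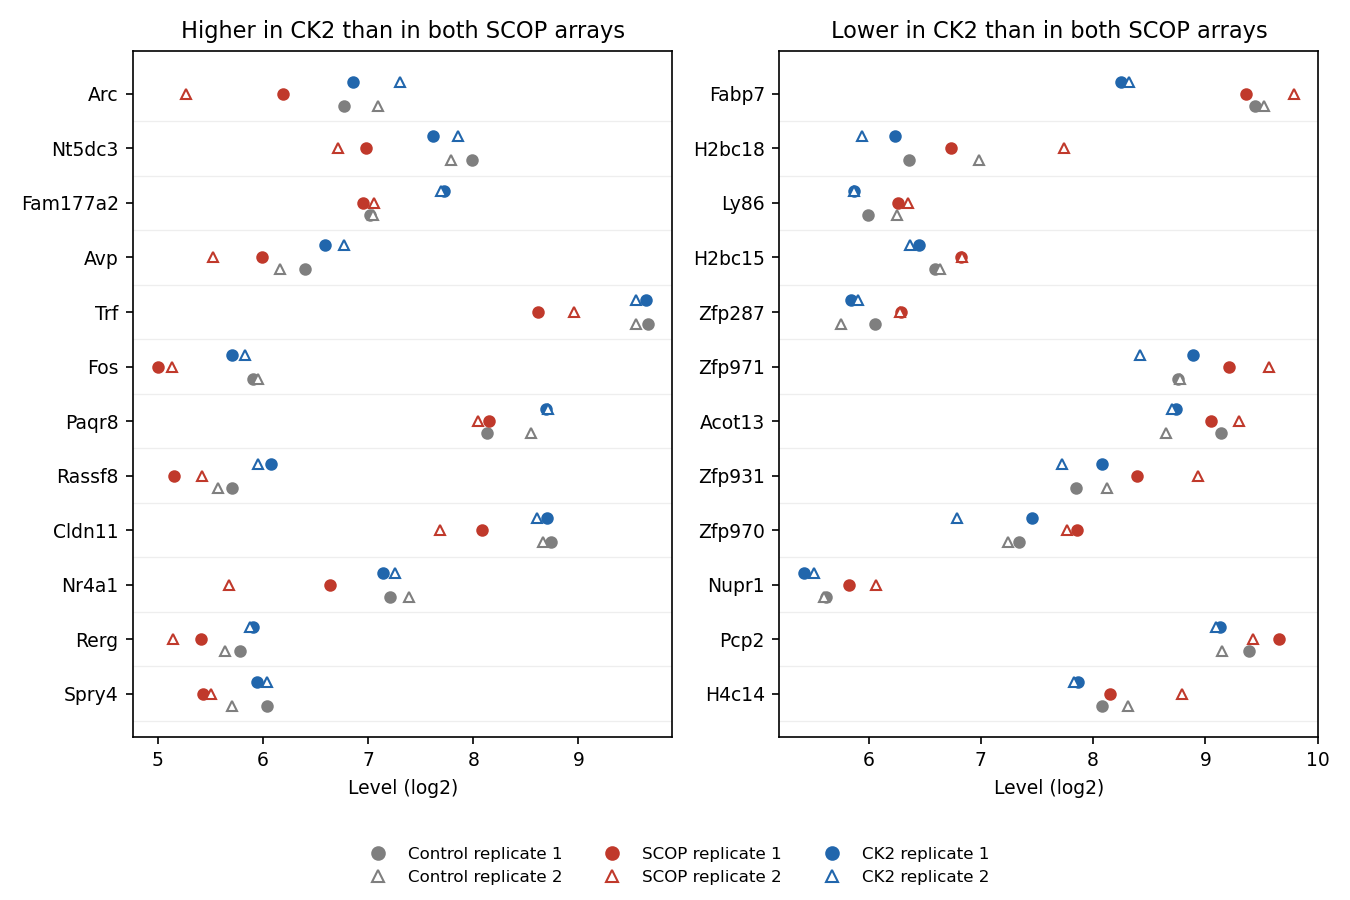
Log2 level on each of the 6 arrays for the 12 bright genes with the widest gaps on either side, predicted genes left out, with CK2 in blue, SCOP in red and Control in grey. Through the choice by gap, the blue points lie to 1 side of the red ones in every gene. For Trf, Cldn11 and Nr4a1 the blue points lie at or close to the grey ones.

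On the lower side, Fabp7 had the widest gap of any bright gene outside the predicted ones. Fabp7, the brain fatty acid binding protein of radial glia and astrocytes, read 9.36 and 9.79 in SCOP, 8.25 and 8.32 in CK2 and 9.44 and 9.52 in Control. The CK2 arrays were close together and stood apart from all 4 others, which overlapped among themselves. The log2 difference from SCOP was -1.29 (2.45-fold lower, standard error 0.22, limma adjusted p of 0.89, unadjusted p of 0.000339), from SCOP replicate 1 it was -1.08, and from Control it was -1.20. This was the smallest unadjusted p of CK2 against SCOP.

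Related genes and markers of the same cells did not separate the groups in this way. Fabp3 read 9.19 and 9.33 in SCOP and 9.23 and 9.24 in CK2, and Fabp5 read 6.83 and 7.18 in SCOP and 6.95 and 6.55 in CK2. Of 15 bright astrocyte markers, 6 had both CK2 arrays above and 1 below both SCOP arrays, against 19.5% and 8.98% of all bright genes, and the median of the list was 0.24 on all arrays and 0.11 against SCOP replicate 1. The astrocyte membrane protein gene Mlc1 read 6.72 and 6.71 in SCOP and 6.98 and 7.10 in CK2, and Aldh1l1, a folate enzyme used as an astrocyte marker, read 6.38 and 6.36 against 6.60 and 6.62. The precursor genes Sox2 and Hes5 had overlapping arrays. The proliferation markers Mki67 and Top2a, dim on every array, went opposite ways, with 3.59 and 3.93 in SCOP and 3.10 and 3.09 in CK2 for Mki67 and 3.17 and 3.08 against 3.48 and 3.28 for Top2a.

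Gm14403, a predicted zinc finger gene outside the naming rule and named after its values were seen, read 8.70 and 9.51 in SCOP, 7.37 and 7.53 in CK2 and 7.93 and 8.20 in Control. The log2 difference was -1.66 (3.15-fold lower, standard error 0.29, limma adjusted p of 0.89, unadjusted p of 0.000404), and it was -1.25 against SCOP replicate 1. It lies in a block of 18 zinc finger genes that the RefSeq annotation places between Edn3 and Phactr3 on mouse chromosome 2, and this block was singled out after its values were seen. In all 18 both CK2 arrays were below both SCOP arrays, against 8.98% of bright genes, and the log2 differences ran from -1.66 to -0.47 with a median of -0.73 (-0.50 against SCOP replicate 1). The genes are neighbours of 1 family, and how far their probes are shared was not tested, so they are not counted as 18 separate measurements.

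The array medians over the block were 8.68 and 9.16 in SCOP, 8.31 and 7.75 in CK2 and 8.15 and 8.36 in Control. CK2 replicate 1 thus lay among the Control arrays and CK2 replicate 2 below them, while both SCOP arrays were above. The median over the block was negative under quantile, loess and median-centred scaling (-0.87 to -0.77) and was -0.45 without CK2 replicate 2. Named members were Zfp971 (9.21 and 9.57 in SCOP, 8.89 and 8.42 in CK2), Zfp931 (8.39 and 8.94 against 8.08 and 7.72) and Zfp970 (7.86 and 7.76 against 7.45 and 6.79). Zfp287, a zinc finger gene outside this block, read 6.29 and 6.28 in SCOP and 5.84 and 5.91 in CK2.

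**Figure D4:**
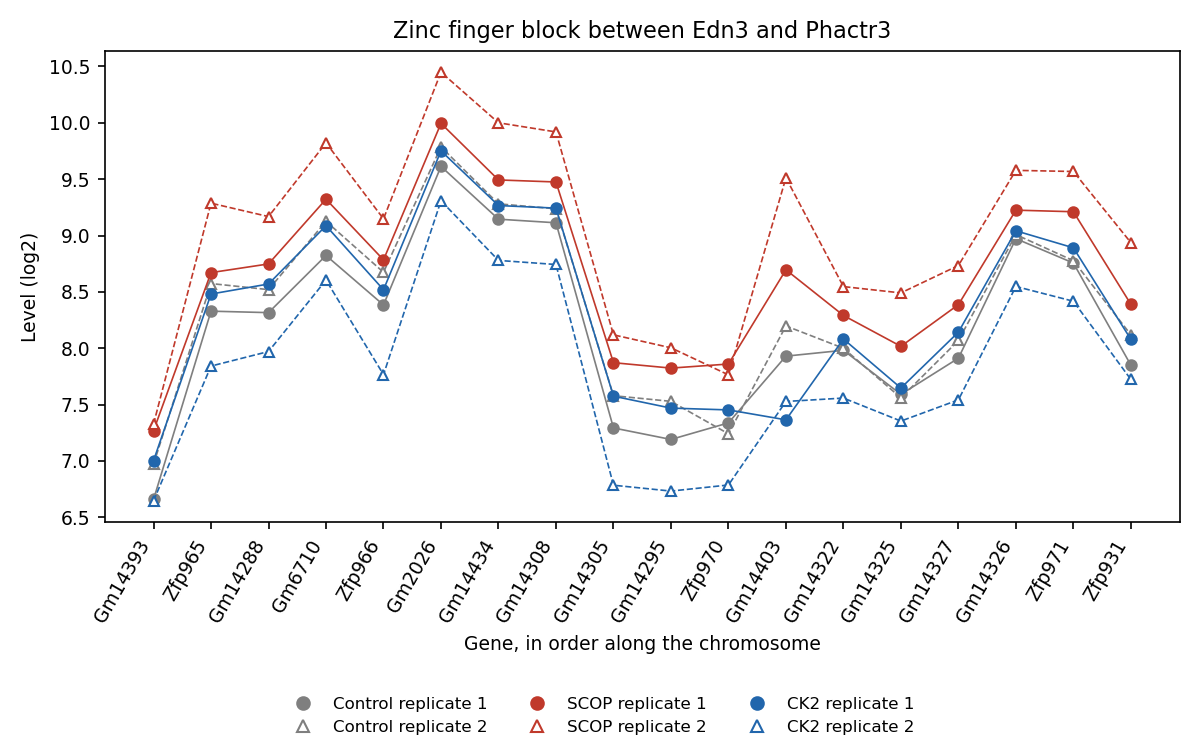
Log2 level of the 18 zinc finger genes on each array, in their order along the chromosome. SCOP (red) lies above CK2 (blue) at every gene, and the 2 CK2 arrays are apart from each other at most genes but close at Gm14403.

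Replication histone genes, whose RNA is made in dividing cells and mostly lacks a poly(A) tail, had lower values in CK2 chiefly against SCOP replicate 2. Of 39 bright members, 15 had both CK2 arrays below both SCOP arrays and 0 above, against 8.98% and 19.5% of bright genes. The median over the 49 measured members was -0.27, while against SCOP replicate 1 the bright members had a median of -0.05 and against SCOP replicate 2 of -0.55. Most of the listed H4 genes had this form, with 8 of 11 below both SCOP arrays. H2bc18 read 6.73 and 7.74 in SCOP, 6.23 and 5.94 in CK2 and 6.36 and 6.98 in Control. H2bc15 read 6.83 and 6.83 in SCOP and 6.45 and 6.37 in CK2, and H4c14 read 8.15 and 8.79 against 7.87 and 7.83. Histone genes of a class are close copies. H3c14 and H3c15 had identical values on every array and were counted as separate members. How far probes are shared among the other histone genes was not tested.

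The other bright genes with lower values in CK2 had smaller gaps. Ly86, the partner of the receptor RP105 on immune cells, read 6.26 and 6.35 in SCOP, 5.87 and 5.87 in CK2 and 5.99 and 6.26 in Control. Nupr1, a stress-induced transcriptional regulator, read 5.82 and 6.07 in SCOP and 5.42 and 5.51 in CK2, both CK2 levels under the brightness limit. Acot13, a mitochondrial acyl-CoA thioesterase, read 9.05 and 9.30 in SCOP and 8.74 and 8.70 in CK2, with Control at 9.14 and 8.65. Pcp2, a Purkinje cell gene, read 9.65 and 9.42 in SCOP, 9.13 and 9.09 in CK2 and 9.39 and 9.14 in Control.

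Other cerebellar genes were examined beside Pcp2. Of 11 bright cerebellar granule and Purkinje markers, 4 had both CK2 arrays below both SCOP arrays and 0 above, against 8.98% and 19.5% of all bright genes. Besides Pcp2 these were Gabra6, a granule cell GABA-A subunit (8.79 and 9.14 against 8.59 and 8.54), Calb1, a calcium buffer (8.45 and 8.60 against 8.23 and 8.06), and Car8, a carbonic anhydrase-related protein of Purkinje cells (9.15 and 9.30 against 8.94 and 8.71). The median of the list was -0.14 against SCOP replicate 1 and -0.11 against SCOP replicate 2, and no member passed an unadjusted p under 0.05 in limma. Zic1, a granule cell factor, read 10.02 and 9.84 in SCOP and 10.25 and 10.01 in CK2. How much cerebellum each sample held was not tested.

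Many gene groups differed from SCOP replicate 2 but not from SCOP replicate 1. Synaptic vesicle genes had a median over 26 bright members of 0.81 against SCOP replicate 2 and 0.05 against SCOP replicate 1. Glycolysis enzymes had 0.68 and -0.001 over 17 bright members, and muscarinic receptors 0.97 and -0.10 over 4. Chrm1, the main muscarinic receptor of the cortex, read 7.61 and 5.88 in SCOP and 7.44 and 7.36 in CK2, so that CK2 lay within the SCOP range. Ache, which breaks down acetylcholine, read 7.34 and 5.44 in SCOP and 7.26 and 7.40 in CK2.

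The shift had the other sign in genes of ribosomes and mitochondria. Ribosomal protein genes had a median over 56 bright members of -0.59 against SCOP replicate 2 and 0.03 against SCOP replicate 1, and oxidative phosphorylation subunits -0.36 and -0.005 over 78. The lists whose bright medians were above 0.1 against both SCOP arrays were the immediate early transcription factors, the activity-induced effectors, heat shock proteins and chaperones (0.14 and 0.35), glucocorticoid-responsive genes (0.13 and 0.38) and astrocyte markers. The background among all bright genes was -0.01 and 0.24. Of 20 bright heat shock and chaperone genes, 10 had both CK2 arrays above both SCOP arrays (19.5% among all bright genes) and 0 below, and 1 of the 25 measured, Dnajb1, an HSP40 co-chaperone (6.71 and 6.56 in SCOP, 7.07 and 7.36 in CK2), passed an unadjusted p under 0.05. Hspa5, the chaperone of the endoplasmic reticulum, read 8.91 and 8.73 in SCOP and 9.05 and 9.15 in CK2.

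**Figure D5:**
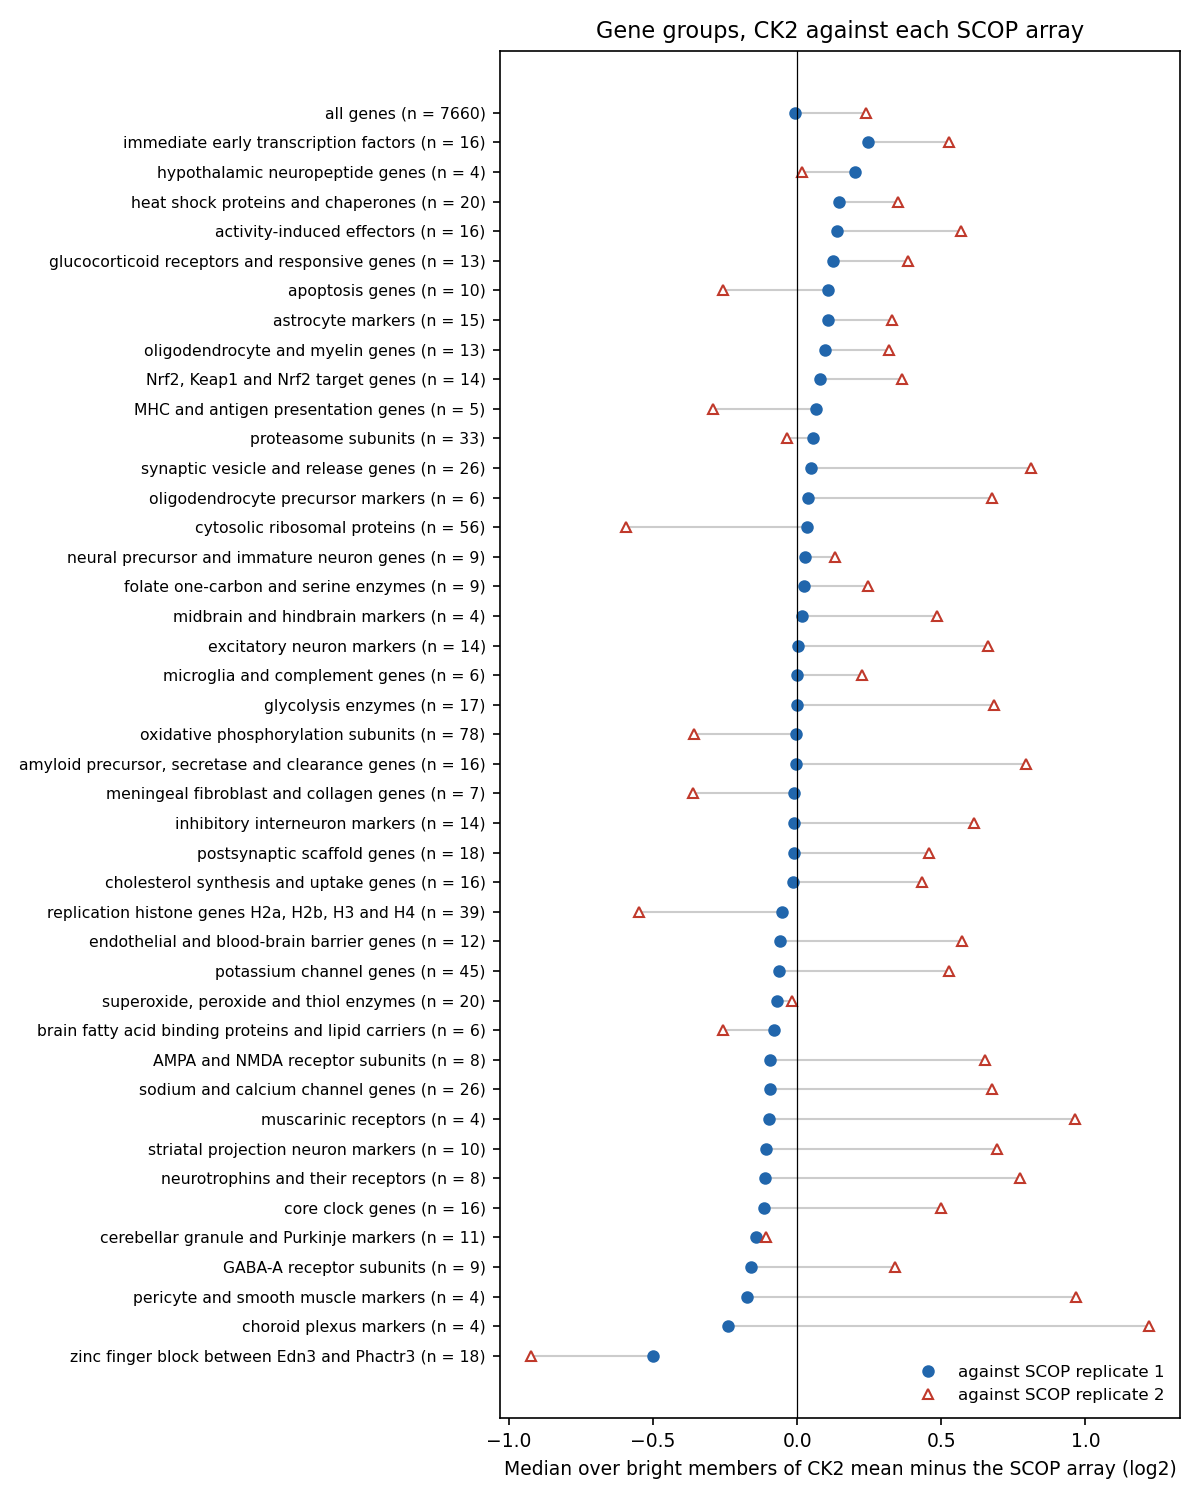
Median over the bright members of each gene list of the CK2 mean minus SCOP replicate 1 (filled circle) or minus SCOP replicate 2 (open triangle), on the log2 scale, with the number of bright members in brackets. Circles lie near 0 for most lists, while triangles spread to both sides, from -0.92 for the zinc finger block to 1.22 for the choroid plexus markers.

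The study measured proteins in mouse brain and in HT22 cells, a mouse hippocampal line, and it reported Keap1 and HO-1 in HT22 cells. From its arrays it also reported enriched molecular functions, among them oxygen binding, peroxidase activity and hemoglobin binding. No set test was run here, so that result was not re-examined. The values here are RNA levels in brain, and none are given for the genes of PS1 and caspase-3. Genes of the study's proteins described here had overlapping SCOP and CK2 arrays, apart from Bace1, Syp and Cycs. For Bace1, Syp and Cycs the CK2 arrays lay just beyond both SCOP arrays. App, the amyloid precursor, read 10.48 and 9.62 in SCOP and 10.52 and 10.42 in CK2, and Bace1, the beta-secretase, read 6.60 and 5.56 against 6.72 and 6.64. Ide, a protease that degrades amyloid beta, read 6.90 and 5.91 in SCOP and 6.67 and 6.64 in CK2, so that the sign of its difference turned without SCOP replicate 2. The synaptic genes Syp and Dlg4 read 11.37 and 10.63 against 11.42 and 11.42, and 10.26 and 9.77 against 10.20 and 10.29. For the oxidative stress pathway, Keap1, the sensor that restrains Nrf2, read 6.52 and 6.13 in SCOP and 6.39 and 6.78 in CK2, and Nfe2l2, which encodes Nrf2, read 4.46 and 4.62 against 4.69 and 4.41. Hmox1, the heme oxygenase that Nrf2 induces, read 5.20 and 4.90 against 5.40 and 5.05, and Cycs, cytochrome c, read 9.68 and 9.97 against 9.64 and 9.40. Txnrd1, a thioredoxin reductase that Nrf2 induces, was the only Nrf2 list member of 22 with an unadjusted p under 0.05 (log2 difference 0.58, limma unadjusted p of 0.0455 and adjusted p of 0.89), against 1.14% higher and 1.43% lower among all genes. Its log2 difference was 0.27 against SCOP replicate 1 and 0.89 against SCOP replicate 2.

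Among the 11845 genes that were not bright, a gap of at least 0.5 was seen in 20 genes that were higher in CK2 (0.169%) and 38 that were lower (0.321%). Mthfd1, an enzyme of folate metabolism, read 4.83 and 4.45 in SCOP and 5.80 and 5.79 in CK2. Serpina1a, an alpha-1-antitrypsin of the liver, read 3.60 and 3.62 in SCOP and 4.44 and 4.69 in CK2, and Ier5l read 3.93 and 3.62 against 4.68 and 4.80. Alas2, the first enzyme of heme synthesis in red blood cell precursors, read 6.03 and 6.04 in SCOP, 4.76 and 4.84 in CK2 and 5.93 and 4.91 in Control, where the Control arrays were nearly as far apart as the groups. Baiap2l1 read 4.20 and 4.10 in SCOP and 3.19 and 3.31 in CK2, and Lrriq1 read 3.27 and 3.40 against 2.52 and 2.33. Most of these levels were under the brightness limit, where background limits the values. Exceptions were Alas2 in both SCOP arrays and Control replicate 1, and Mthfd1 in both CK2 arrays.

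The Control arrays lay beyond SCOP for most of the bright genes with higher values. Of the 10 at a gap of 0.5, both SCOP arrays were below both Control arrays in 8, the CK2 mean fell within the Control range in 2, Arc and Trf, and both CK2 arrays were above both Control arrays in 4, which were Fam177a2, Avp, Paqr8 and Rassf8. Fos was the only 1 of the 10 with both CK2 arrays below both Control arrays. Of the 78 at a gap of 0.25, SCOP was below Control in 58 and CK2 above Control in 37. Of the 30 with lower values at that gap, both SCOP arrays were above both Control arrays in 23 and both CK2 arrays below both Control arrays in 17. These comparisons share the SCOP and the CK2 arrays with the gap that chose the genes, so the counts describe where Control lies and test nothing. In limma no gene differed at an adjusted p under 0.05 in SCOP against Control or in CK2 against Control.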

How the data were processed

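The deposited values are on the log2 scale, 1 per probe set. The submitters' processing notes name RMA, whose version and genome build are not given in the sources used here. Its background correction, normalization across arrays and probe summary leave no information on total RNA. Of 22206 transcript probe sets 19572 carried 1 symbol in the platform annotation, 0 several and 2634 none. All 19572 matched RefSeq (GRCm38.p6), which was used only for names and gene order. For 55 genes with several probe sets the brightest was kept, giving 19505. One model of all 6 arrays was fitted in limma 3.58.1 under R 4.3.3 (lmFit, eBayes, 3 residual and 5.08 prior degrees of freedom, Benjamini-Hochberg adjustment over all genes), and the fit was tested on simulated data. Array number limits the precision.

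Named were the 12 bright genes with the widest gap on either side and 3 on either side among the rest (predicted genes, receptor families and small RNAs left out), up to 4 members of each list, and genes of proteins in the study. Members and lists were chosen with earlier results of these data known. Alternatives were quantile, loess or median-centred scaling, averaged probe sets, other thresholds and fits, the methods' t-test and each array left out. Those for the zinc finger block and the histones were chosen after seeing the data.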

Additional observations from a re-analysis of the deposited data

Results flagged for a closer look

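Of 746 bright probe sets with no gene symbol in the annotation used here, which no comparison above includes, 2 had both CK2 arrays above both SCOP arrays by at least 0.5 and also stood above both Control arrays. One of them had a log2 difference of 0.699, and its values were identical on every array to those of Fam177a2, so it adds no separate measurement. The other had a log2 difference of 0.769, with 5.65 and 5.44 in SCOP, 6.42 and 6.21 in CK2 and 6.09 and 6.14 in Control.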

How the results depend on the processing

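Signal over background and the number of arrays limit all values. By limma 0 genes passed an adjusted p of 0.05 on all arrays and 0 to 3240 with 1 array left out. The count was above 0 only without SCOP replicate 1, which leaves replicate 2 alone in its group, with a spread taken from the other groups. With 1 array left out, the counts at an unadjusted p under 0.05 (223 higher, 279 lower) ran from 61 to 3859 and from 88 to 2875, both lowest without CK2 replicate 2 and highest without SCOP replicate 1. They were 377 and 356 without SCOP replicate 2, 87 and 93 without CK2 replicate 1, and 110 and 161 without either Control array or with only the 4 arrays compared. They were 60 and 31 with bright genes only, where fewer genes were tested, and the share with higher values was 44.4%, or 33.7% with medians centred and 65.9% with bright genes only. The methods' t-test gave 291 and 293, and 0 after Benjamini-Hochberg adjustment.

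The gap counts (10 higher, 2 lower) were 5 and 2 with quantile and 5 and 3 with cyclic loess normalization, so the share with higher values moved from 83.3% to 71.4% and 62.5%. They were 78 and 30 at a gap of 0.25, 0 and 2 at a gap of 1, 5 and 2 at a mean of at least 7, and 30 and 40 with no brightness filter. With 1 array left out they ran from 16 to 2176 and from 7 to 544, highest without SCOP replicate 1, and were 16 and 18 without SCOP replicate 2, 30 and 31 without CK2 replicate 1 and 22 and 7 without CK2 replicate 2. The median difference of bright genes was 0.118 as deposited, 0.019 with quantile and 0.005 with cyclic loess normalization.

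Over the alternatives of 46 named genes, 609 values kept their direction and side of the threshold, 25 passed it, all without SCOP replicate 1, and 10 turned sign. Those were Dlg4 (-0.015), App (-0.008), Ide (-0.242) and Mbp (0.034) without SCOP replicate 2, Nfe2l2 with quantile normalization (-0.024), medians centred (-0.038), without SCOP replicate 1 (-0.073) and without CK2 replicate 1 (-0.136), Hmox1 without CK2 replicate 1 (-0.001) and Mbp without CK2 replicate 2 (0.001). With 1 array left out, these genes ranged from -0.015 to 0.473 (Dlg4), -0.008 to 0.851 (App), -0.242 to 0.743 (Ide), -0.136 to 0.149 (Nfe2l2), -0.001 to 0.341 (Hmox1) and -0.193 to 0.034 (Mbp). The causes of these shifts were not tested.

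Replicate numbers did not pair the samples (correlations of deviations 0.024, -0.005 and -0.028). A fit with the replicate number as a block gave, in limma, 0 calls after adjustment and 261 higher and 264 lower at an unadjusted p under 0.05.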

Other observations

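Among the 746 bright probe sets with no gene symbol, 3 had both CK2 arrays below both SCOP arrays by at least 0.5, and they were named by nothing in the annotation used here. Their log2 differences were -1.62, -1.74 and -1.03 on all arrays and -1.63, -1.75 and -1.35 against SCOP replicate 1. The first read 11.37 and 11.34 in SCOP, 9.36 and 10.11 in CK2 and 11.32 and 10.86 in Control. The second had nearly the same values (11.43 and 11.39 in SCOP, 9.33 and 10.02 in CK2), and whether the 2 are separate measurements was not tested. The third had a gap of only 0.501, with 11.58 and 10.93 in SCOP.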
